A study of Mus musculus with 44 samples.

Results

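The 10 genes described here mark osteoclast differentiation and were followed through RNA-seq counts of mouse bone marrow-derived macrophages (BMDMs). They were chosen by gene symbol from the 24940 genes in each count table, and all 10 were found (Acp5, Ctsk, Ocstamp, Dcstamp, Nfatc1, Atp6v0d2, Oscar, Itgb3, Tnfrsf11a and Calcr). Osteoclasts are the bone-resorbing cells that arise when cells of the monocyte and macrophage lineage fuse. RANKL binds its receptor RANK on these precursors, and the signal raises the transcription factor NFATc1, which switches on genes for cell fusion, attachment to bone, acid secretion and matrix digestion. Macrophages carry RANK and several of the resorption enzymes already, and inflammatory signals such as TLR ligands or interferons can hold the programme back or, in committed precursors, push it forward.

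The first table (the NCoR table) held BMDMs of NCoR flox/flox mice without Cre (WT) and of NCoR flox/flox, LysMCre mice (NKO), which lack the corepressor NCoR in cells that express Lyz2. Both genotypes received vehicle (Veh), KLA (an agonist of TLR4), PolyIC (an agonist of TLR3), IFNb (interferon β) or IL4 for 6 h, or RANKL for 12 h. The RGFP966 table held BMDMs described as wild type under vehicle, KLA, or KLA with RGFP966, which inhibits the deacetylase HDAC3. The Pgc1b table held Pgc1b flox/flox BMDMs without Cre (Pgc1b_flox) and with LysMCre (Pgc1b_flox_Cre) under vehicle or KLA. The TBK1i table held wild-type BMDMs under DMSO, DMSO with KLA (DMSO_KLA), or KLA with the TBK1 inhibitor GSK8612 (TBK1i_KLA). Exposure to vehicle or KLA was 6 h in these 3 tables where the labels give it. By the study's methods, RGFP966 and GSK8612 were added earlier, together with a 12 h serum starvation that preceded KLA. All mice were C57BL/6, and the study's methods give their age as 8 to 12 weeks. Each of the 22 groups had 2 libraries, 44 in all. Nothing in the labels says that the 2 libraries came from separate mice, so that p-values measure the spread between libraries, which may be technical.

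Libraries held 8.32 M to 16.8 M gene counts (median 12.1 M). Levels are CPM values, counts divided by the TMM-scaled library total in M within each table, so that levels of different tables are not on one common scale. A gene at 3 counts or fewer, equal to 0.141 to 0.5 CPM in these libraries, was treated as not detectable, and floors of this kind cover counting error only. Ncor1, the targeted gene, was at 49.4 to 64.9 CPM in the 12 NKO libraries and at 133 to 215 CPM in the 12 WT libraries of the same table. Lyz2, at which LysMCre is inserted, spanned 3093 to 15330 CPM in NKO and 6158 to 19370 CPM in WT libraries. Ppargc1b was not lower in the libraries labelled Pgc1b_flox_Cre (3.41 to 3.75 CPM under vehicle and 8.73 to 10.3 CPM under KLA) than in those without Cre (2.88 to 4.38 and 6.78 to 7.80 CPM), and counts over all exons do not check the loss of some of them. Hdac3, the target of RGFP966, was at 28.3 to 48.0 CPM in all libraries. Dates in the library names put both RANKL groups 536 days before their vehicle groups, WT_KLA 115 days and NKO_KLA 1516 days before, and the other groups of the NCoR table on the vehicle date. By counts of Xist and of Y-linked genes, NKO_KLA came from male and the other NCoR groups from female mice. The same counts mark all libraries of the Pgc1b table as male and those of the RGFP966 and TBK1i tables as female. Summed markers of neutrophils and their progenitors (Ly6g, S100a8, S100a9, Mpo, Elane and Prtn3) reached 660 to 686 CPM in WT_RANKL and 968 to 1030 CPM in NKO_RANKL, against 1.77 to 8.21 CPM in the 20 other libraries of that table. The 8 macrophage markers, Lyz2 among them, summed to 23500 to 23800 CPM in WT_RANKL and 16700 to 21000 CPM in NKO_RANKL, whose columns are both headed osteoclast. The same sum was 17100 to 17500 CPM in WT_Veh and 11400 to 11600 CPM in NKO_Veh. The part of Lyz2, where LysMCre is inserted, in the genotype differences of these sums was not tested. Of these 8 markers, 6 were called lower and 1 higher in WT_RANKL than in WT_Veh (median log2 -1.03).

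The promoters of 3 of these genes are shown because each gene moved differently with NCoR. Acp5 was higher in NKO at vehicle and not called under RANKL, Ctsk was higher in NKO in both, and Tnfrsf11a was called in neither. Promoters were matched for 5 of the 10 genes in a RefSeq table (build GRCm38.p6), and the 250 bases before the start of the counted transcript were searched on both strands. The motifs were CATGTG and CACGTG (E-boxes read by MITF and its TFE relatives), GGAAA (core of NFAT sites), TGANTCA (AP-1 sites), AGGAAG (core of PU.1 sites) and AGGTCA (a nuclear receptor half-site). AGGAAG and GGAAA share the letters GGAA. Capitals mark the matches, written on the strand of the gene. The Acp5 promoter lies on the minus strand at chr9:22130599-22130848, the Ctsk promoter on the plus strand at chr3:95498960-95499209 and the Tnfrsf11a promoter on the plus strand at chr1:105780473-105780722.
Acp5: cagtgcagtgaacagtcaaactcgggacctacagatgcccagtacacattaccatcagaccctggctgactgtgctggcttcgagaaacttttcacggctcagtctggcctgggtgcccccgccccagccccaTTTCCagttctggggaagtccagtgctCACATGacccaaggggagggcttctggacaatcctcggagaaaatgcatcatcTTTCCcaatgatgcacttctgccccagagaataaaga
Ctsk: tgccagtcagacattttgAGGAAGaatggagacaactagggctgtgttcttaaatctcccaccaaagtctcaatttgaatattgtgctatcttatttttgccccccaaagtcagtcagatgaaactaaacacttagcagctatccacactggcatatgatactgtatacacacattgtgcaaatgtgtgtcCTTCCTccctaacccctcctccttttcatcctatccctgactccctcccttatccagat
Tnfrsf11a: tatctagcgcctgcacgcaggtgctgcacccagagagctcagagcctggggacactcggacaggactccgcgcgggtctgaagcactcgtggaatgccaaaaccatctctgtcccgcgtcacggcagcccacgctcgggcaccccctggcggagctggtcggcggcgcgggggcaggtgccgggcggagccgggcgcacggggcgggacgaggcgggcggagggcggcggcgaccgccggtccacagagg
Acp5 held 1 CATGTG at 90 to 85 bases before the start and 2 GGAAA at 117 to 113 and at 37 to 33 bases, all on the reverse strand. Ctsk held AGGAAG at 232 to 227 bases and, on the reverse strand, at 59 to 54 bases before the start. No match stood in the Tnfrsf11a window. CATGTG was present in 12.3% of 32851 promoter windows of that length, CACGTG in 6.02%, GGAAA in 55.6%, TGANTCA in 6.75%, AGGAAG in 29.5% and AGGTCA in 14% of them. These matches are letters in a window, with no binding measured here.

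Under RANKL the differentiation genes differed between NKO and WT in both directions. The fusion genes Dcstamp and Ocstamp were lower in NKO_RANKL than in WT_RANKL, the protease gene Ctsk and the integrin gene Itgb3 were higher, and the receptor gene Tnfrsf11a was not called. Of the 8 members that could be tested, 2 were called higher and 2 lower. Genes were called when the adjusted p was below 0.05 and the fold change exceeded 1.5, and 6.21% of the 13407 genes tested were called higher and 6.99% lower (833 and 937 genes, or 619 and 1247 with library totals and no scaling factors). The median log2 fold change was 0.12 over the members and 0.0069 over all genes.

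Tnfrsf11a (mm10, chr1:105780723-105847981) encodes RANK itself. Its level was 198 CPM in both WT_RANKL libraries and 195 and 212 CPM in the NKO_RANKL libraries. The genotypes overlapped, with a log2 fold change of 0.04 ± 0.057 (SE) and an adjusted p of 0.672. Nfatc1 (chr18:80606205-80708173), the transcription factor at the centre of the programme, was at 48.7 and 45.5 CPM in WT_RANKL and at 29.8 and 36.4 CPM in NKO_RANKL. Both NKO libraries lay below both WT libraries. The log2 difference of -0.51 ± 0.086 (adjusted p = 1.84e-06) was under the fold threshold, and it passed when NKO_RANKL replicate 2 was left out (-0.66, adjusted p = 5.81e-07) or with library totals and no scaling factors (-0.61, adjusted p = 1.79e-08).

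Dcstamp (chr15:39745930-39760938) encodes DC-STAMP, the membrane protein without which precursors fail to fuse. It stood at 18.0 and 16.9 CPM in WT_RANKL and at 7.77 and 7.69 CPM in NKO_RANKL. The NKO libraries were lower, with no overlap and a log2 fold change of -1.17 ± 0.147 (adjusted p = 1.71e-09). Ocstamp (chr2:165395450-165400394), a second fusion protein of the same kind, was scarce. It had 49 and 59 counts (3.20 and 4.11 CPM) in WT_RANKL and 14 and 20 counts (1.27 and 2.02 CPM) in NKO_RANKL. The groups did not overlap and Ocstamp fell in NKO, with a log2 fold change of -1.16 ± 0.353 and an adjusted p of 0.00738. The Ocstamp call was lost without WT_RANKL replicate 2 (-0.98, adjusted p = 0.0798) and without NKO_RANKL replicate 1 (-0.85, adjusted p = 0.141).

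Itgb3 (chr11:104608000-104670471) encodes the β3 chain of the vitronectin receptor, with which osteoclasts hold on to bone. It was at 73.1 and 74.0 CPM in WT_RANKL and at 112 and 128 CPM in NKO_RANKL. Both NKO libraries were above both WT libraries (log2 0.71 ± 0.083, adjusted p = 1.37e-09). Ctsk (chr3:95499210-95509387) encodes cathepsin K, the collagen-degrading protease of the resorption pit. Its values were 23.8 and 24.3 CPM in WT_RANKL and 46.3 and 43.8 CPM in NKO_RANKL. This rise of 0.91 ± 0.088 on the log2 scale had an adjusted p of 5.97e-13. Acp5 (chr9:22126727-22130598) encodes tartrate-resistant acid phosphatase, the usual histochemical stain for osteoclasts. WT_RANKL had 47.5 and 45.1 CPM of Acp5 and NKO_RANKL 49.3 and 57.7 CPM, which did not overlap but differed by a log2 of 0.21 ± 0.088 (adjusted p = 0.0641). Atp6v0d2 (chr4:19876838-19922566), a subunit of the proton pump with a part in fusion, was at 67.0 and 66.2 CPM in WT_RANKL and at 81.7 and 87.0 CPM in NKO_RANKL. Its difference of 0.34 ± 0.071 (adjusted p = 0.000114) was under the fold threshold.

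Oscar (chr7:3609815-3616157), a costimulatory receptor, and Calcr (chr6:3685680-3764713), the calcitonin receptor of mature osteoclasts, were near 0 throughout. Oscar had 0 to 8 counts, with 0 in 23 of the 44 libraries and no more than 3 in 43. Calcr had at most 3 counts in all 44 libraries and 0 in 38. Neither passed the filter on low counts in any table, so that differences in them were not detectable at this depth. In bulk samples, fewer cells of a type and less RNA per cell cannot be told apart, and the part of the neutrophil and progenitor markers, which were higher in NKO_RANKL, in these results was not tested. S100a8, 1 of the 6 markers, was called higher in NKO_RANKL (log2 0.63, adjusted p = 3.05e-13), as were 2 of 8 macrophage markers and 1 of 5 osteoblast and stroma markers tested.

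**Figure D1:**
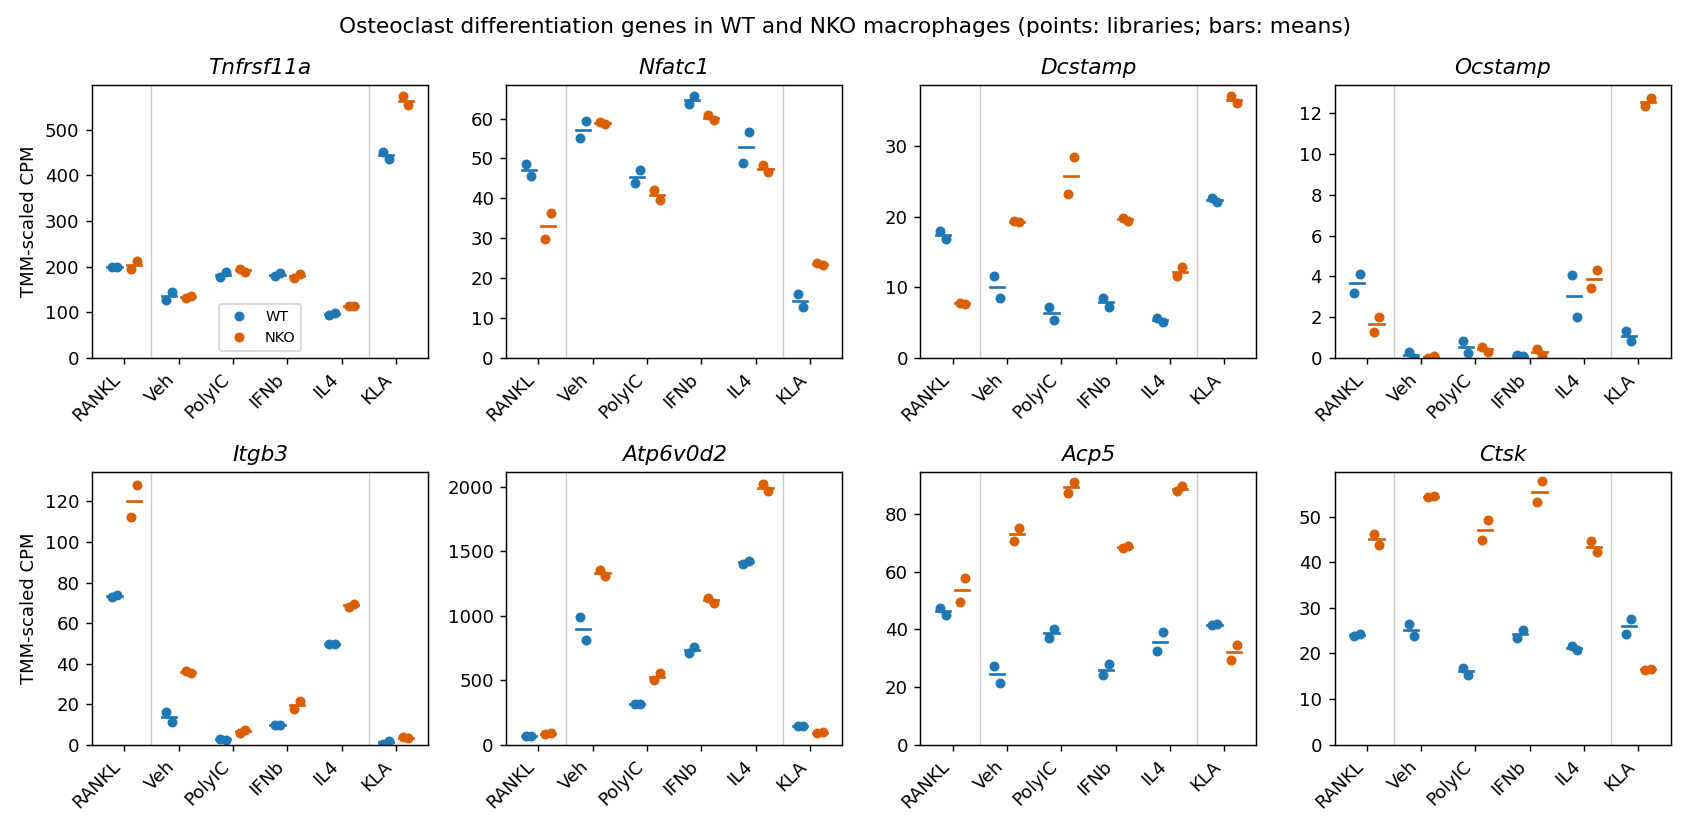
Levels of 8 osteoclast differentiation genes in the NCoR table, with TMM-scaled CPM on a linear axis in each of the 12 groups. Points are single libraries (2 per group), and Dcstamp under RANKL lies near 17 CPM in WT and near 8 CPM in NKO whereas under vehicle NKO lies above WT.

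Members differed between RANKL and vehicle in both directions. In WT cells Itgb3, Ocstamp, Acp5 and Dcstamp were higher and Atp6v0d2 was lower after RANKL (4 higher and 1 lower of 8 tested). Across all genes 24.1% were called higher and 19.8% lower in that comparison. In NKO cells Itgb3, Ocstamp and Tnfrsf11a were higher while Dcstamp, Nfatc1 and Atp6v0d2 were lower (3 and 3 of 8), beside 25.3% of all genes higher and 20.0% lower. RANKL and vehicle libraries differ in treatment, hours, date and column heading (osteoclast against BMDM), which cannot be told apart. The study's methods describe RANKL treatment of BMDMs and, for ChIP-seq, a separate osteoclast culture in another medium. Which culture gave the libraries headed osteoclast is not settled, so that culture and starting cells may differ from vehicle too. The neutrophil and progenitor markers named above also rose with RANKL, all 6 of 6 in each genotype. So did 4 of 4 B cell markers in each genotype (median log2 4.91 in WT and 5.69 in NKO), 3 of 4 dendritic cell markers in WT and 2 of 4 in NKO, and 2 of 5 osteoblast and stroma markers in WT and 4 of 5 in NKO. Of the 8 macrophage markers 1 was higher and 6 lower in WT, and 3 were higher and 2 lower in NKO. The part of these marker genes in the differences was not tested.

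Itgb3 went from 16.2 and 11.2 CPM in WT_Veh to the 73.1 and 74.0 CPM given above, a log2 rise of 2.42 ± 0.105 (adjusted p = 5.41e-25). In NKO it rose from 36.5 and 35.2 CPM by 1.75 ± 0.089 (adjusted p = 2.7e-22). Ocstamp had 4 and 0 counts in WT_Veh and 0 and 2 in NKO_Veh. Its rise in WT was 4.63 ± 0.542 on the log2 scale (adjusted p = 4.33e-11), and in NKO it was at least 8.51-fold higher, taking 3 counts per library as the floor. Because Ocstamp was not detectable in NKO_Veh, no difference between genotypes in its response is given.

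Acp5 rose in WT from 27.3 and 21.5 CPM by 0.92 ± 0.094 (adjusted p = 2.48e-12). In NKO_Veh it started at 70.6 and 75.2 CPM, above every RANKL library, and the value after RANKL was lower by a log2 of -0.45 ± 0.083 (adjusted p = 4.78e-06, under the fold threshold). Dcstamp was at 11.6 and 8.55 CPM in WT_Veh and rose by 0.79 ± 0.131 (adjusted p = 3.44e-07), a rise under the fold threshold without WT_Veh replicate 2 (0.58). In NKO_Veh Dcstamp was at 19.4 and 19.2 CPM, and RANKL was followed by a fall of -1.31 ± 0.145 (adjusted p = 5e-12). Both WT_RANKL libraries were above WT_Veh, whereas both NKO_RANKL libraries were below NKO_Veh.

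Atp6v0d2 was at 987 and 811 CPM in WT_Veh and at 1356 and 1311 CPM in NKO_Veh, and RANKL libraries were lower by log2 values of -3.75 ± 0.068 in WT (adjusted p = 4e-45) and -3.98 ± 0.068 in NKO (adjusted p = 2.9e-46). Nfatc1 was at 55.0 and 59.4 CPM in WT_Veh and at 59.3 and 58.6 CPM in NKO_Veh. Its log2 difference with RANKL was -0.28 ± 0.076 in WT (adjusted p = 0.00101, under the fold threshold) and -0.84 ± 0.084 in NKO (adjusted p = 2.14e-13). Tnfrsf11a was higher with RANKL by 0.55 ± 0.057 in WT (adjusted p = 6.88e-13, under the fold threshold) and by 0.61 ± 0.058 in NKO (adjusted p = 2.64e-14). The NKO value of Tnfrsf11a went under the threshold without NKO_Veh replicate 1 (0.58) or NKO_RANKL replicate 2 (0.55), and the WT value passed it without WT_Veh replicate 2 (0.64) or with library totals and no scaling factors (0.64). Ctsk was at 26.5 and 23.7 CPM in WT_Veh and at 54.3 and 54.5 CPM in NKO_Veh, with log2 differences of -0.06 ± 0.092 in WT (adjusted p = 0.551) and -0.27 ± 0.079 in NKO (adjusted p = 0.00214), neither of them called.

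The effect of NCoR loss at RANKL minus that at vehicle was tested as an interaction. Hours, date, column heading and perhaps culture also differ between RANKL and vehicle, and cannot be told apart from RANKL in it. It was called for Dcstamp (-2.10 ± 0.195, adjusted p = 2.81e-13), Acp5 (-1.37 ± 0.125, adjusted p = 1.75e-12) and Itgb3 (-0.68 ± 0.142, adjusted p = 0.000207), so 3 of 8 members were lower, beside 6.97% of all genes lower and 7.26% higher. For Dcstamp the genotype difference changed sign, from 0.93 at vehicle to -1.17 at RANKL. For Itgb3 it stayed positive and the interaction went under the fold threshold without WT_Veh replicate 2 (-0.44) or NKO_RANKL replicate 1 (-0.58). Nfatc1 reached -0.56 ± 0.114 (adjusted p = 9.65e-05, under the fold threshold), with -0.71 without NKO_RANKL replicate 2, -0.62 without WT_Veh replicate 2 and -0.61 without WT_RANKL replicate 2 or with library totals and no scaling factors, all of them called. The values for Ctsk (-0.21 ± 0.121, adjusted p = 0.21), Atp6v0d2 (-0.23 ± 0.092, adjusted p = 0.0525) and Tnfrsf11a (0.06 ± 0.081, adjusted p = 0.624) were not called. These interactions use the same 8 libraries as the comparisons above and are no independent evidence of them.

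Other genes of the pathway were counted in lists that leave the 10 members out, beside the 6.21% of all genes called higher and 6.99% called lower in NKO_RANKL against WT_RANKL. In that comparison 9 of 12 inhibitors of osteoclast formation were called, all of them higher (median log2 fold change 0.73). Of 19 transcription factors 4 were called, all lower (median -0.08), of 18 genes of RANK signalling and costimulation 1 was called higher (median 0.11), and of 22 genes of fusion, attachment and resorption 1 was called higher (median 0.06). Id1, an HLH protein that blocks DNA binding of its partners, was at 5.62 and 6.69 CPM in WT_RANKL and at 50.9 and 52.6 CPM in NKO_RANKL (log2 3.07 ± 0.207, adjusted p = 1.27e-12). Its relative Id2 was at 87.0 and 91.6 CPM in WT_RANKL and at 225 and 245 CPM in NKO_RANKL (1.40 ± 0.089). Both Id genes, picked from the calls, were higher in NKO without overlap, which is no further evidence. Hey1, a repressor downstream of Notch, had 0.589 and 0.767 CPM in WT_RANKL and 1.45 and 1.92 CPM in NKO_RANKL (1.30 ± 0.476, adjusted p = 0.0282). The Hey1 call was lost without WT_RANKL replicate 1 (adjusted p = 0.153), WT_RANKL replicate 2 (0.0583) or NKO_RANKL replicate 2 (0.187).

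Among the transcription factors, Jdp2, an AP-1 family member that osteoclast formation needs, was at 89.9 and 78.7 CPM in WT_RANKL and at 14.0 and 13.5 CPM in NKO_RANKL (log2 fold change -2.62 ± 0.104, adjusted p = 1.72e-29). Nfkb2, which encodes the p100 precursor of the alternative NFκB pathway, was at 181 and 176 CPM in WT_RANKL and at 63.8 and 74.3 CPM in NKO_RANKL (-1.37 ± 0.063). Ppargc1b, the coactivator PGC1β, was at 6.54 and 5.79 CPM in WT_RANKL and at 2.62 and 3.64 CPM in NKO_RANKL (-0.99 ± 0.215). For all 3, which were picked from the calls, the NKO libraries lay below the WT libraries without overlap, which is no further evidence. Tnfrsf11b encodes osteoprotegerin, the decoy receptor that captures RANKL, and it had 1.90 and 2.16 CPM in WT_RANKL and 4.79 and 6.68 CPM in NKO_RANKL (1.49 ± 0.301, adjusted p = 5.61e-05). The gelatinase gene Mmp9 was at 95.6 and 90.5 CPM in WT_RANKL and at 136 and 250 CPM in NKO_RANKL (1.05 ± 0.208, adjusted p = 0.00145). The NKO_RANKL libraries of Mmp9 differed from each other by more than the lower one differed from WT_RANKL, and the call was lost without NKO_RANKL replicate 2 (0.55) and when only the compared groups were fitted (adjusted p = 0.223).

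After RANKL in WT cells, the lists divided as well, in a comparison with 24.1% of all genes called higher and 19.8% lower. Of the 19 transcription factors, 7 were higher and 6 lower than in WT_Veh. Jdp2 rose from 2.82 and 3.35 CPM (log2 4.77 ± 0.127), Myc from 8.46 and 7.11 CPM to 129 and 122 CPM (4.01 ± 0.101), and the AP-1 gene Fosl1 from 1.17 and 1.09 CPM to 9.74 and 10.1 CPM (3.12 ± 0.262). Tfeb (log2 fold change -1.27 ± 0.068), a regulator of lysosomes, Prdm1 (-1.08 ± 0.083), a repressor of the inhibitor Irf8, and Jund (-0.85 ± 0.066) were lower. Of the 12 inhibitors, 4 rose and 5 fell. Id1 (2.89 ± 0.384), the Notch effector gene Rbpj (0.83 ± 0.071) and Tnfaip3 (0.77 ± 0.065), which restrains NFκB, rose. Irf8 fell from 227 and 223 CPM to 85.0 and 87.2 CPM (-1.38 ± 0.060) and Hey1 from 2.75 and 2.33 CPM to the values above (-1.89 ± 0.411). In NKO_RANKL Irf8 was at 140 and 148 CPM, between WT_RANKL and the vehicle groups.

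RANK signalling and costimulation genes were lower after RANKL in WT in 6 of 18 cases and higher in 1, where 19.8% of all genes were lower and 24.1% higher. The adaptor gene Gab2 was lower (log2 fold change -1.59 ± 0.062), as were Trem2, a receptor that signals through DAP12 (-1.27 ± 0.055), and Csf1r, the M-CSF receptor of macrophages (-1.03 ± 0.052). Tnfsf11, the gene for RANKL, had 0 counts in both WT_Veh libraries and 12 and 3 counts in WT_RANKL, at least 2.42-fold above the floor. That Tnfsf11 call was lost in DESeq2 (adjusted p = 0.53) and without WT_RANKL replicate 1 (0.0792). Among the 22 fusion, attachment and resorption genes 1 rose and 3 fell. Car2, the carbonic anhydrase that supplies protons, went from 0.550 and 0.616 CPM to 1.77 and 1.46 CPM (1.46 ± 0.400, adjusted p = 0.00109). Plekhm1, which acts in lysosome trafficking (-0.85 ± 0.055), Sh3pxd2a, which encodes a podosome scaffold (-0.85 ± 0.102), and the proton pump gene Atp6v1a (-0.81 ± 0.049) were lower. In the interaction, with 7.26% of all genes called higher and 6.97% lower, 7 of 12 inhibitors were called, all of them higher, Id1 (4.28 ± 0.752) and Id2 (1.49 ± 0.126) among them. Calls higher and lower were 2 and 1 of 18 in RANK signalling and costimulation, 1 and 3 of 22 in fusion, attachment and resorption, and 2 and 3 of 19 among the transcription factors, of which Jdp2 (-2.55 ± 0.259), Nfkb2 (-1.34 ± 0.089) and Ppargc1b (-1.14 ± 0.297) were lower.

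**Figure D2:**
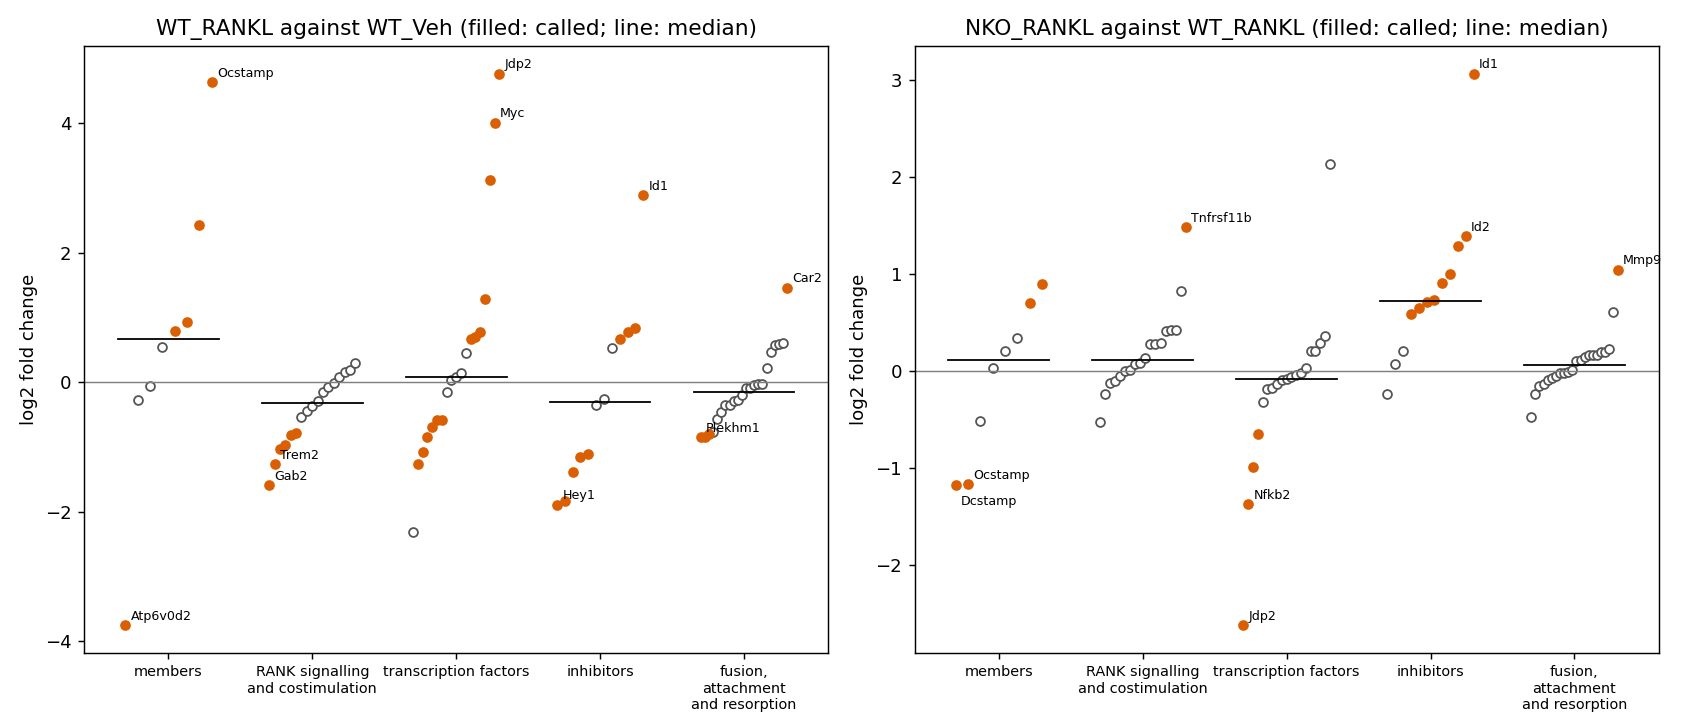
Log2 fold changes of the 8 differentiation genes tested (members) and of 4 lists of other pathway genes, WT_RANKL against WT_Veh on the left and NKO_RANKL against WT_RANKL on the right. Each point is a gene, filled points were called, lines are list medians, and Tnfsf11, which had 0 counts in WT_Veh, is not drawn on the left although it counts in its median. On the right the inhibitors lie mostly above 0, with Id1 at 3.07, and Jdp2 at -2.62 lies at the bottom of the transcription factors.

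Without RANKL, several of the genes were higher in NKO in each of the 4 conditions stamped with the vehicle date. At vehicle Acp5, Ctsk, Itgb3 and Dcstamp were called higher in NKO (4 of 8), beside 2.40% of all genes higher and 3.80% lower. With PolyIC 5 were called, all higher, beside 3.01% of all genes higher and 2.92% lower. With IFNb again 5 were called, all higher, beside 1.86% and 1.94% (250 and 260 genes, or 195 and 365 with library totals and no scaling factors). With IL4 3 were called, all higher, beside 1.90% and 2.33% (255 and 313 genes, or 193 and 426 with library totals). Acp5, Ctsk and Dcstamp were called in all 4 conditions. These 4 comparisons share no library, but they share a date stamp and the spread estimated over the table. The labels do not say whether the same mice supplied several conditions, so that the 4 may not be independent.

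Acp5 was higher in NKO by 1.58 ± 0.089 on the log2 scale at vehicle (adjusted p = 7.54e-20). With PolyIC it was at 36.9 and 40.3 CPM in WT and at 87.3 and 91.1 CPM in NKO (1.21 ± 0.093). With IFNb the Acp5 values were 24 and 28.0 CPM against 68.1 and 69.0 CPM (1.40 ± 0.090). IL4 gave 32.3 and 39.0 CPM against 87.9 and 89.5 CPM of Acp5 (1.31 ± 0.084). No NKO library of the 4 conditions was as low as the highest of the WT libraries. Ctsk behaved alike, with log2 differences of 1.11 ± 0.082 at vehicle (adjusted p = 3.83e-17), 1.55 ± 0.106 with PolyIC, 1.19 ± 0.084 with IFNb and 1.04 ± 0.089 with IL4. Its values were 16.8 and 15.4 CPM in WT_PolyIC against 44.9 and 49.2 CPM in NKO_PolyIC, and 21.7 and 20.7 CPM in WT_IL4 against 44.6 and 42.3 CPM in NKO_IL4.

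Dcstamp differed most with PolyIC. It was at 7.26 and 5.41 CPM in WT_PolyIC and at 23.1 and 28.4 CPM in NKO_PolyIC, a log2 difference of 2.02 ± 0.161 (adjusted p = 7.41e-16). At vehicle the difference was 0.93 ± 0.128 (adjusted p = 3.98e-08), with IFNb 1.31 ± 0.136 and with IL4 1.18 ± 0.160. The Dcstamp interaction of NKO and PolyIC against vehicle was 1.09 ± 0.213 (adjusted p = 0.000209). It was the only member called there (1 of 8, beside 2.13% and 1.10% of all genes, 286 and 148 genes, or 488 and 102 with library totals and no scaling factors), and Ctsk had 0.44 ± 0.137 (adjusted p = 0.0306, under the fold threshold).

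Itgb3 was higher in NKO at vehicle (1.39 ± 0.113, adjusted p = 1.13e-13), with PolyIC (2.98 and 2.52 CPM in WT against 5.70 and 7.46 CPM in NKO, 1.26 ± 0.274) and with IFNb (9.78 and 9.69 against 17.8 and 21.6 CPM, 1.01 ± 0.135). With IL4 it was at 49.9 and 49.6 CPM in WT and at 67.9 and 69.7 CPM in NKO, a difference of 0.47 ± 0.089 under the fold threshold (adjusted p = 0.000106). Atp6v0d2 was called with PolyIC, where WT had 314 and 317 CPM and NKO 501 and 555 CPM (0.74 ± 0.061), and with IFNb, where WT had 709 and 759 CPM and NKO 1140 and 1101 CPM (0.61 ± 0.058). The IFNb call of Atp6v0d2 went under the threshold without WT_IFNb replicate 1 (0.56) and with library totals and no scaling factors (0.54). At vehicle (0.57 ± 0.057) and with IL4 (0.49 ± 0.057) its NKO libraries were also above its WT libraries, under the fold threshold. Nfatc1 and Tnfrsf11a were called in none of the 4 conditions. Their log2 differences ran from -0.16 to 0.04 for Nfatc1 and from -0.03 to 0.25 for Tnfrsf11a, and the largest, Tnfrsf11a with IL4, had an adjusted p of 0.00226.

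**Figure D3:**
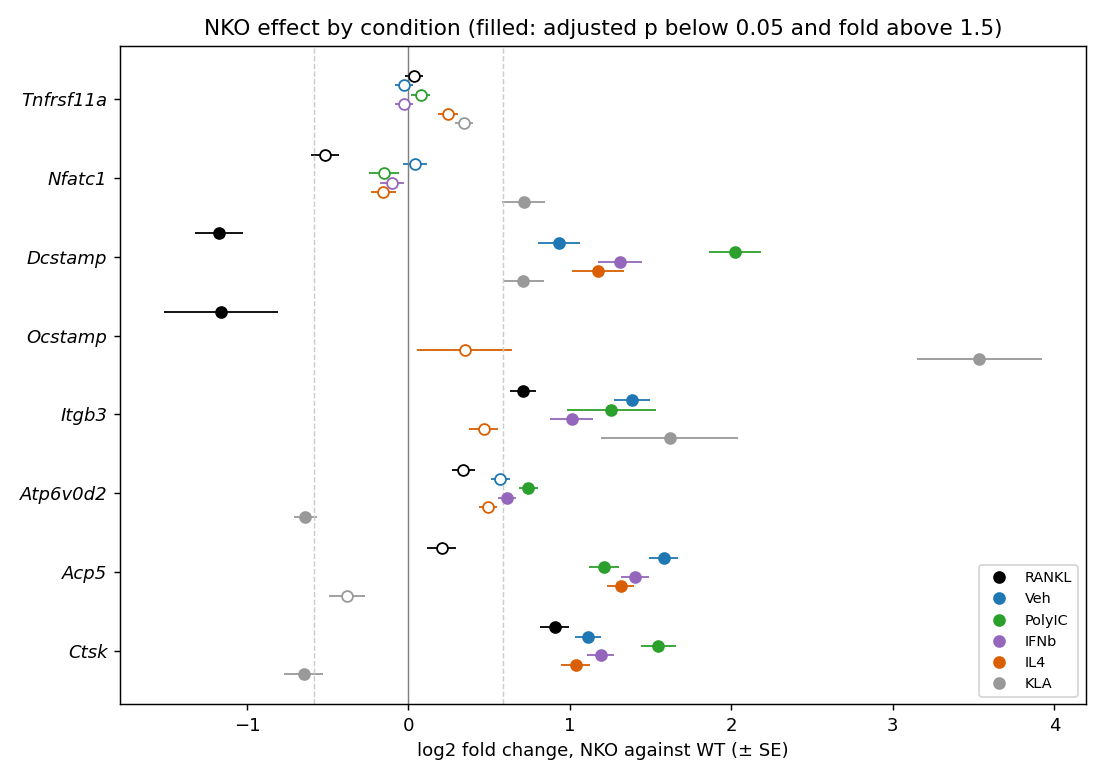
Log2 fold changes of NKO against WT for the differentiation genes in each condition of the NCoR table, with bars of 1 SE. Ocstamp is drawn only where a group was above the floor (RANKL, IL4 and KLA). Acp5, Ctsk and Dcstamp lie above 0 at vehicle, PolyIC, IFNb and IL4, and Dcstamp lies at -1.17 under RANKL.

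In WT cells the ligands other than RANKL were compared with vehicle. These comparisons share the 2 WT_Veh libraries. PolyIC was followed by lower Atp6v0d2, Itgb3, Ctsk and Dcstamp and by higher Acp5 (1 higher and 4 lower of 8), beside 22.2% of all genes higher and 25.0% lower (2974 and 3357 genes, or 1762 and 6930 with library totals and no scaling factors). Itgb3 had a log2 change of -2.31 ± 0.221 with PolyIC and Atp6v0d2 of -1.51 ± 0.061. The other 3 PolyIC calls depended on single libraries. Ctsk (-0.64 ± 0.110) was under the fold threshold without WT_Veh replicate 1 (-0.56) or WT_PolyIC replicate 2 (-0.58). Dcstamp (-0.67 ± 0.178) was lost without the same libraries (-0.43, adjusted p = 0.0648, and -0.48, adjusted p = 0.0567). Acp5 (0.66 ± 0.105) was under the threshold without WT_Veh replicate 2 (0.50) and near 0 with library totals and no scaling factors (0.01, adjusted p = 0.906).

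IL4 raised Itgb3 (1.86 ± 0.111), Ocstamp and Atp6v0d2 and lowered Dcstamp (3 higher and 1 lower of 8), beside 6.63% and 6.46% of all genes. Ocstamp had 52 and 26 counts in WT_IL4 (4.09 and 2.00 CPM) against 4 and 0 in WT_Veh (log2 4.37 ± 0.572, adjusted p = 4.26e-09). NKO_IL4 had 50 and 61 counts of Ocstamp, which overlapped with WT_IL4. Atp6v0d2 was at 1401 and 1428 CPM in WT_IL4 and at 2019 and 1964 CPM in NKO_IL4, the highest of the 12 groups of the NCoR table. Its IL4 response in WT (0.65 ± 0.058) was under the threshold without WT_Veh replicate 2 (0.52). Dcstamp fell to 5.66 and 5.15 CPM (-0.90 ± 0.165, adjusted p = 9.55e-06). With IFNb no member was called by edgeR or DESeq2 (0 of 8, with 5 at an unadjusted p below 0.05 in edgeR, and 1 called lower without WT_Veh replicate 2), beside 4.09% of all genes higher and 2.37% lower (549 and 318, or 452 and 576 with library totals and no scaling factors). At an adjusted p below 0.05 alone, Tnfrsf11a (0.43 ± 0.057), Itgb3 (-0.49 ± 0.143) and Atp6v0d2 (-0.29 ± 0.058) differed.

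KLA, the TLR4 agonist, was given in all 4 tables, which share no library. In each of them Acp5 was higher and Nfatc1, Atp6v0d2 and Itgb3 were lower after KLA. WT_KLA was stamped 115 days before WT_Veh, so that KLA and date cannot be told apart in the NCoR table. In the other tables KLA alone and vehicle shared a date. Counts of members called were 4 higher and 3 lower in WT_KLA (25.4% and 32.3% of all genes), 2 and 4 in the RGFP966 table (27.9% and 32.2%), 2 and 3 in Pgc1b_flox (22.8% and 25.7%) and 3 and 4 in DMSO_KLA (29.6% and 29.3%). Summed markers of osteoblasts and stroma were also lower after KLA in each table, at 86.8 to 97.1 CPM in WT_Veh and 2.33 to 2.62 CPM in WT_KLA, where 4 of the 5 tested were called lower and Sp7, Col1a1 and Col1a2 had 0 counts. The same sum was at 13.4 to 14.1 CPM in Veh and 2.80 to 3.92 CPM in KLA of the RGFP966 table, at 11.3 to 14.0 CPM and 1.26 to 3.22 CPM in Pgc1b_flox, and at 57.4 to 59.5 CPM and 38.4 to 40.4 CPM in the DMSO groups. Taken singly, these markers were divided. The 1 tested in the RGFP966 table was called lower. In Pgc1b_flox 1 of 3 was called higher and 1 lower (median log2 2.7), and in DMSO_KLA 1 of 4 was called lower. The summed macrophage markers were higher after KLA in each table, from 17100 to 17500 CPM in WT_Veh to 21500 to 21700 CPM in WT_KLA. Of the 8 macrophage markers 4 were called higher and 2 lower in WT_KLA (median log2 0.54), and 4 and 1 in the RGFP966 table (0.80). These counts were 4 and 0 in Pgc1b_flox (0.725) and 3 and 2 in DMSO_KLA (0.04). The part of either set of markers in the results with KLA was not tested. With library totals and no scaling factors these all-gene splits were 1846 higher and 7347 lower in place of 3408 and 4336 for WT_KLA, 1796 and 7012 in place of 3399 and 3924 for the RGFP966 table, 1494 and 6557 in place of 2787 and 3133 for Pgc1b_flox, and 1785 and 6794 in place of 3647 and 3619 for DMSO_KLA. The median log2 change over all genes moved with that choice from -0.14 to -0.87 for WT_KLA and from 0.02 to -0.76 for DMSO_KLA.

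The counted transcript was not the same in all tables for 2 members. For Nfatc1 it had 4592 bases in the NCoR and RGFP966 tables. In the Pgc1b and TBK1i tables it had 4884 bases and another start. For Dcstamp it had 1993 bases in the Pgc1b table and 1990 in the others. The part of this in differences between tables was not tested. Nfatc1 was at 46.5 and 47.2 CPM under vehicle and at 18.1 and 12.6 CPM under KLA in the RGFP966 table. Its log2 changes were -1.99 ± 0.114 in WT_KLA, -1.62 ± 0.108 in the RGFP966 table, -1.89 ± 0.126 in Pgc1b_flox and -2.16 ± 0.098 in DMSO_KLA. Itgb3 fell further, by log2 values of -3.55 ± 0.306, -4.79 ± 0.237, -3.0 ± 0.272 and -3.75 ± 0.212 in the same order. In the RGFP966 table it went from 20.9 and 21.2 CPM to 0.764 and 0.741 CPM. Atp6v0d2 went from 1199 and 1296 CPM to 247 and 245 CPM there, with log2 changes between -2.62 and -1.86 over the 4 tables.

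Acp5 rose with KLA from 12.0 and 10.2 CPM to 91.7 and 88.3 CPM in the RGFP966 table (3.02 ± 0.090), by 2.98 ± 0.138 in Pgc1b_flox and by 2.85 ± 0.071 in DMSO_KLA. In WT_KLA the rise was 0.77 ± 0.111, to 41.6 and 41.7 CPM, and with library totals and no scaling factors it was 0.04 (adjusted p = 0.738). Tnfrsf11a rose by 1.71 ± 0.058 in WT_KLA (451 and 437 CPM), 1.31 ± 0.060 in the RGFP966 table and 1.42 ± 0.050 in DMSO_KLA. The Tnfrsf11a value in the RGFP966 table was 0.54 with library totals and no scaling factors, and in Pgc1b_flox it was 0.58 ± 0.069, both under the fold threshold. Ctsk was lower in the RGFP966 table (-0.86 ± 0.105) and in DMSO_KLA (-0.93 ± 0.132), and had 0.04 ± 0.108 in WT_KLA and -0.41 ± 0.190 in Pgc1b_flox. Ocstamp was called higher in WT_KLA from 4 and 0 to 8 and 5 counts (2.88 ± 0.848, adjusted p = 0.00209), in Pgc1b_flox from 4 and 2 to 27 and 13 counts (3.28 ± 0.830), and in DMSO_KLA from 1 and 0 to 15 and 4 counts, at least 5.75-fold above the floor. Dcstamp was called in WT_KLA (1.14 ± 0.146, or 0.42 with library totals and no scaling factors), and had, in differences between tables that were not tested, -0.36 ± 0.086 in the RGFP966 table, -0.25 ± 0.123 in Pgc1b_flox and 0.06 ± 0.163 in DMSO_KLA.

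Between the genotypes at KLA, Ctsk and Atp6v0d2 were lower in NKO and Ocstamp, Dcstamp, Nfatc1 and Itgb3 were higher (4 higher and 2 lower of 8, beside 21% and 19% of all genes). Genotype, sex and date cannot be told apart in this comparison, since the NKO_KLA libraries came from male mice and were stamped 1401 days before WT_KLA. Ocstamp had 144 and 134 counts in NKO_KLA (12.4 and 12.8 CPM), the highest of the 12 groups of the NCoR table, against 8 and 5 counts in WT_KLA (3.54 ± 0.385, adjusted p = 6.17e-12). Atp6v0d2 was at 92.1 and 95.4 CPM in NKO_KLA against 146 CPM in both WT_KLA libraries (-0.64 ± 0.071). Dcstamp was at 37.0 and 36 CPM against 22.6 and 22.0 CPM (0.71 ± 0.127). The calls of Ctsk (-0.65 ± 0.120), Nfatc1 (0.71 ± 0.134) and Itgb3 (1.62 ± 0.422) went under the threshold without 1 WT_KLA library, replicate 2 for Ctsk (-0.55) and Nfatc1 (0.56) and replicate 1 for Itgb3 (0.96, adjusted p = 0.0797).

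The perturbations were compared with KLA alone. RGFP966 with KLA against KLA gave 3 higher and 2 lower members (15.8% and 9.54% of all genes). Dcstamp rose from 38.2 and 34.9 CPM to 67.9 and 61.4 CPM (0.82 ± 0.086, adjusted p = 1.36e-13), its highest group mean in that table. Itgb3 rose from the near-floor values above to 1.69 and 2.10 CPM (1.32 ± 0.393). Atp6v0d2 fell to 137 and 136 CPM (-0.85 ± 0.061) and Tnfrsf11a from 313 and 289 CPM to 178 and 176 CPM (-0.77 ± 0.060). Ocstamp went from 3 and 1 counts to 14 and 11, at least 3.48-fold above the floor. The Ocstamp call was lost in DESeq2 (adjusted p = 0.108) and without KLA replicate 2 (0.207) or RGFP966_KLA replicate 1 (0.113). Nfatc1 was not called with RGFP966 (13.0 and 13.1 CPM, -0.21 ± 0.133, adjusted p = 0.176). One of the RGFP966_KLA libraries was stamped 14 days after the others of its table.

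TBK1i with KLA against DMSO_KLA gave 2 higher and 2 lower members, beside 15.0% of all genes higher and 18.3% lower (1852 and 2260 genes, or 3987 and 1429 with library totals and no scaling factors). Nfatc1 was at 66.6 and 64.0 CPM in DMSO_Veh, at 15.7 and 13.4 CPM in DMSO_KLA and at 65.7 and 60.5 CPM in TBK1i_KLA (2.12 ± 0.104, adjusted p = 7.31e-91). Both TBK1i_KLA libraries lay above both DMSO_KLA libraries, 1 of them between the 2 vehicle libraries. Itgb3 rose from 1.22 and 2.31 CPM to 5.81 and 4.96 CPM (1.62 ± 0.297), short of the 23 and 24.5 CPM under vehicle. Dcstamp fell from 10.7 and 12.6 CPM to 6.31 and 5.64 CPM (-0.96 ± 0.198). Tnfrsf11a fell from 252 and 272 CPM to 154 and 158 CPM (-0.75 ± 0.050), and by less than the fold threshold with library totals and no scaling factors (-0.38). Acp5 had 143 and 140 CPM in DMSO_KLA and 146 and 155 CPM in TBK1i_KLA (0.09 ± 0.057, adjusted p = 0.166).

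In the Pgc1b table, Cre was accompanied by 1 member called at vehicle, which was higher, beside 0.164% of all genes higher and 0.139% lower, and by 5 members called at KLA, all higher, beside 13.2% and 12.9% (1609 and 1573 genes, or 2386 and 1110 with library totals and no scaling factors). At KLA Nfatc1 was at 13.6 and 15.2 CPM without Cre and at 59.2 and 62.8 CPM with Cre (2.09 ± 0.126, adjusted p = 3.54e-16). Vehicle levels of Nfatc1 were 51.5 and 54.6 CPM without Cre and 58.3 and 50.6 CPM with Cre. Itgb3 was at 2.08 and 1.26 CPM without Cre at KLA and at 9.70 and 8.53 CPM with Cre (2.42 ± 0.292). Atp6v0d2 was at 203 and 224 CPM against 542 and 567 CPM (1.38 ± 0.065), Dcstamp at 31.6 and 28.3 against 54.7 and 44.7 CPM (0.73 ± 0.122), and Ctsk at 8.95 and 11.4 against 17.9 and 18.7 CPM (0.85 ± 0.189). All 5 were above the libraries without Cre with no overlap, which is no evidence beyond their calls.

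The interaction of Cre and KLA was called higher for Nfatc1 (2.05 ± 0.163, adjusted p = 1.56e-12), Atp6v0d2 (1.19 ± 0.088), Itgb3 (1.73 ± 0.351) and Dcstamp (0.69 ± 0.168) and lower for Acp5 (-0.68 ± 0.189), 4 and 1 of 8 beside 11.6% and 11.2% of all genes (1413 and 1370 genes, or 2282 and 880 with library totals and no scaling factors). Acp5 at vehicle was at 7.54 and 12.3 CPM without Cre and at 17.6 and 16.6 CPM with Cre (0.77 ± 0.151, adjusted p = 0.00521). This Acp5 call was lost without Pgc1b_flox_Veh replicate 1 (0.48, adjusted p = 0.476) or Pgc1b_flox_Cre_Veh replicate 1 (0.73, adjusted p = 0.0562). The Acp5 interaction was lost without Pgc1b_flox_Veh replicate 1 (-0.38, adjusted p = 0.132) and with library totals (-0.45, adjusted p = 0.0639), and that of Dcstamp went under the threshold without Pgc1b_flox_Cre_KLA replicate 1 (0.56).

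**Figure D4:**
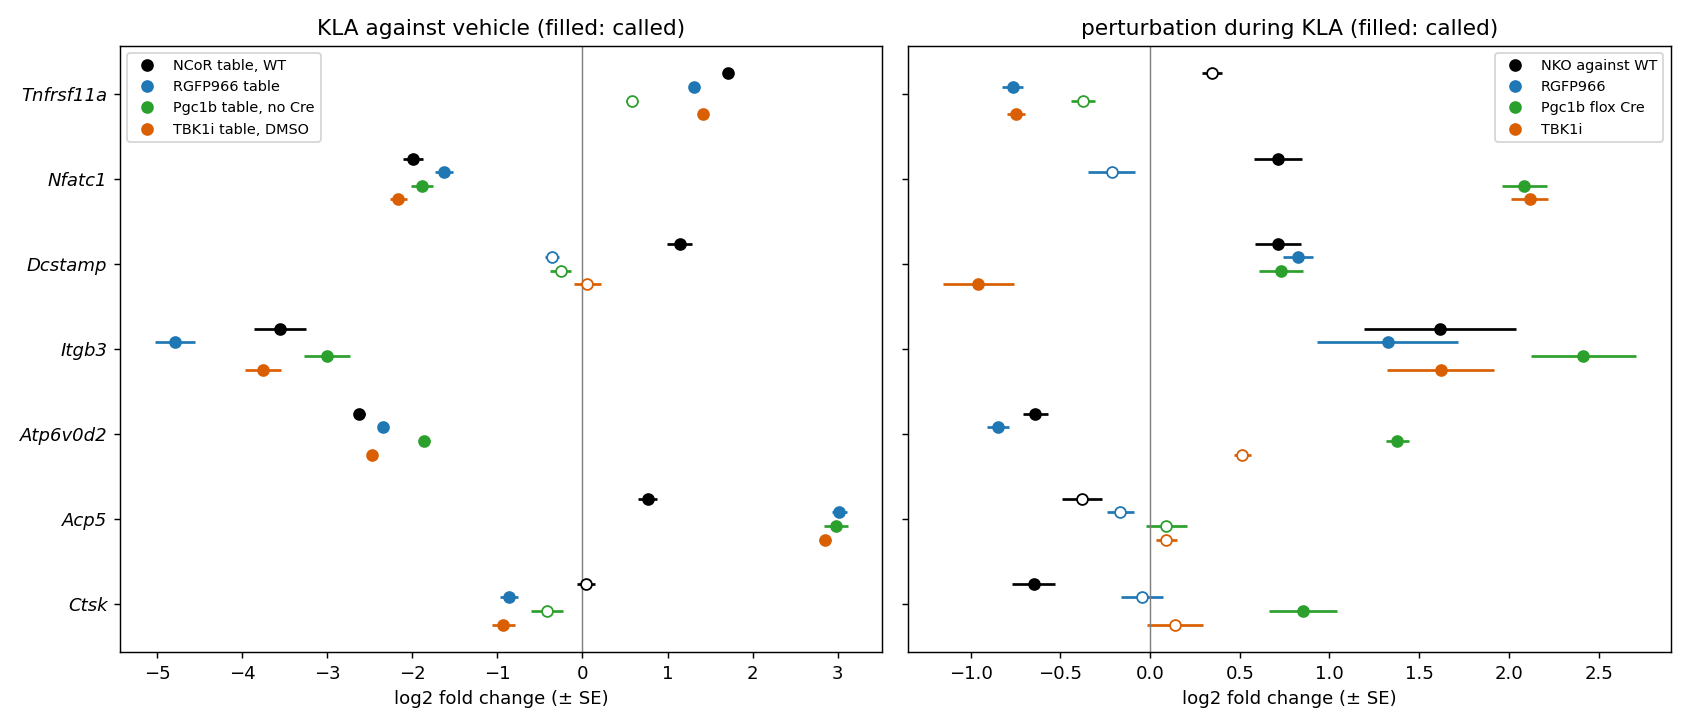
Log2 changes of the differentiation genes other than Ocstamp with KLA in 4 tables on the left and with a perturbation at KLA on the right, with bars of 1 SE and filled points where called. Nfatc1 lies between -2.16 and -1.62 with KLA in every table and near 2.1 both for TBK1i and for Cre, but at -0.21 for RGFP966. Nfatc1 was counted on another transcript in the Pgc1b and TBK1i tables than in the NCoR and RGFP966 tables.

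Compared per kilobase of the counted transcript, the order of the members in WT_RANKL was Tnfrsf11a (39.6 CPM per kb), Acp5 (34.3), Atp6v0d2 (26.7), Ctsk (15.3), Itgb3 (12.8), Nfatc1 (10.3), Dcstamp (8.76) and Ocstamp (1.88). In WT_Veh Atp6v0d2 led with 361 CPM per kb and Itgb3 stood at 2.38. Over the 22 groups, on the CPM scale of each table, Acp5 ranged from 9.91 (Pgc1b_flox_Veh) to 151 CPM (TBK1i_KLA), Ctsk from 10.2 (Pgc1b_flox_KLA) to 55.4 CPM (NKO_IFNb), Dcstamp from 5.40 (WT_IL4) to 64.6 CPM (RGFP966_KLA), Nfatc1 from 13.1 (RGFP966_KLA) to 65.3 CPM (DMSO_Veh), Itgb3 from 0.753 (KLA) to 120.4 CPM (NKO_RANKL), Atp6v0d2 from 66.6 (WT_RANKL) to 1992 CPM (NKO_IL4) and Tnfrsf11a from 95.6 (WT_IL4) to 563 CPM (NKO_KLA). The highest Acp5 was thus in a KLA group and the lowest Atp6v0d2 in a RANKL group.

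Over the 12 group means of the NCoR table, which share scaling and in part dates, Acp5 and Ctsk varied together (Pearson r = 0.797 of log2 CPM) and Nfatc1 ran opposite to Tnfrsf11a (r = -0.815). Of 9793 genes averaging 5 CPM or more, those most like Acp5 were Scd1 (r = 0.911), Mmp12 (0.881) and Bcap31 (0.879). The same 3 genes were most like Ctsk, with r of 0.938 for Mmp12, 0.866 for Scd1 and 0.84 for Bcap31. Kank2 (0.972), Sh2d3c (0.969) and Ccdc142 (0.964) were most like Nfatc1. These are descriptions over 12 means and carry no test.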

How the data were processed

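The authors mapped RNA-seq reads to mm10 with STAR. The deposited counts are, per the file headers, whole reads in exons of 1 RefSeq transcript per gene, made with HOMER and not normalized. Tool versions are not given in the sources used here. The study's methods describe strand-specific counting while the command in the headers names no strand option, so that the strand setting behind these counts, and with it the share of antisense reads, is unsettled. The tables list 1346 genes under 250 bases, which were kept.

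The 4 tables were fitted separately in R 4.3.3 using edgeR 4.0.16 (TMM scaling, filterByExpr on the groups, robust quasi-likelihood fit of all groups of a table). The 2-sided quasi-likelihood F-test was used, with Benjamini-Hochberg adjustment over the 13407, 12196, 12205 and 12332 genes tested in the NCoR, RGFP966, Pgc1b and TBK1i tables. Genes were called at an adjusted p below 0.05 with a fold change over 1.5, and SEs were derived from the F statistic. An exact permutation test of 1 gene over 2 libraries per group has no p as low as 0.05, so that the tests rest on a spread shared across genes and groups (common biological coefficient of variation 0.0421, 0.0433, 0.0665 and 0.031). The 22 replicate pairs correlated at r of 0.992 to 0.997 and differed by more than counting noise (chi-square per degree of freedom 1.54 to 5.87). Replicate numbers did not pair the libraries (correlations of deviations from -0.09 to 0.08). On data simulated for NKO_RANKL against WT_RANKL, 97 of 100 genes changed 2-fold and 100 of 100 changed 4-fold were recovered, with 5 unchanged genes called of 12752 tested. The simulation gave all genes the same spread and, apart from the changed genes, all groups the same profile. Only genes above a minimum mean count were changed, so that recovery at low counts or with a wider spread was not tested.

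The members and lists were chosen with earlier results of these data known. The genes named were the 10 members, 4 genes that check the labels, from each pathway list up to 3 called higher and 3 called lower with the largest change in NKO_RANKL against WT_RANKL and in WT_RANKL against WT_Veh, and for Acp5, Ctsk and Nfatc1 the 3 genes most like them. Of the genes so chosen, 1 is not reported here. S100a8 and the interaction values of listed genes were named after their values were seen. Other settings were DESeq2 size factors, DESeq2 1.42.0, no filter, a mean of at least 5 CPM, no fold threshold, a replicate block, only the compared groups, each library left out in turn and, added after the data were seen, library totals without scaling factors. The 2 interactions other than that of NKO and RANKL were also added later. Plots were made with matplotlib 3.10.9 (Python 3.11.15). Other assays of the study were left out.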

Additional observations from a re-analysis of the deposited data

Results flagged for a closer look

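Several members differed between conditions in the effect of a genotype. For NCoR loss at RANKL against vehicle, the tested difference on the log2 scale was -1.37 for Acp5, -2.10 for Dcstamp and -0.68 for Itgb3. RANKL and vehicle also differ in hours, date, column heading and perhaps culture. For NCoR loss with PolyIC against vehicle it was 1.09 for Dcstamp. For Cre in the Pgc1b table at KLA against vehicle it was -0.68 for Acp5, 0.69 for Dcstamp, 2.05 for Nfatc1, 1.19 for Atp6v0d2 and 1.73 for Itgb3.

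At KLA the log2 difference of NKO from WT had the opposite sign to that at vehicle for Acp5 (-0.38 against 1.58), Ctsk (-0.65 against 1.11) and Atp6v0d2 (-0.64 against 0.57). The difference was not tested, since genotype, sex and date cannot be told apart at KLA. Dcstamp moved the opposite way with KLA in the RGFP966 table (-0.36) and in Pgc1b_flox (-0.25) to WT_KLA (1.14), and this difference between separately normalized tables was not tested either. Groups of 2 libraries are too small for a check of single outlying libraries.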

How the results depend on the processing

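With 2 libraries per group, the calls rest on the shared spread, and depth left Oscar and Calcr undetectable and Ocstamp at counts under 10 in most groups. Counts of members called moved by over 1.5 times in few cases. With no fold threshold they went from 3 to 6 for NKO_IL4 vs WT_IL4, from 0 to 3 for WT_IFNb vs WT_Veh, from 4 to 7 for WT_IL4 vs WT_Veh and from 1 to 2 for the NKO effect at PolyIC minus at Veh. With library totals without scaling factors, WT_IFNb vs WT_Veh went from 0 to 1. Pgc1b_flox_Cre_Veh vs Pgc1b_flox_Veh went from 1 to 2 with no filter on low counts and with only the compared groups. With single libraries left out, WT_IFNb vs WT_Veh ranged from 0 to 1 and Pgc1b_flox_Cre_Veh vs Pgc1b_flox_Veh from 0 to 1.

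In the pathway lists, NKO_RANKL vs WT_RANKL calls went with no fold threshold from 1 to 9 for RANK signalling, from 4 to 10 for transcription factors and from 1 to 10 for fusion, attachment and resorption, and WT_RANKL vs WT_Veh calls from 7 to 14 for RANK signalling and from 4 to 14 for fusion, attachment and resorption. The single call in RANK signalling at NKO_RANKL became 2 with library totals or without WT_RANKL replicate 2 and 0 with a mean of at least 5 CPM, and that in fusion, attachment and resorption became 0 with only the compared groups or without NKO_RANKL replicate 2 and 2 without NKO_RANKL replicate 1. Over all genes, NKO_RANKL vs WT_RANKL had 1770 calls, 4594 with no fold threshold and 1168 with a mean of at least 5 CPM, and the largest ratio with no fold threshold was 4.05 (NKO_IL4 vs WT_IL4).

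Among the values of single genes, 5 turned sign, all near 0. Tnfrsf11a in NKO_RANKL vs WT_RANKL was -0.064 with library totals without scaling factors and ranged from -0.024 to 0.094 with single libraries left out. Ctsk in WT_RANKL vs WT_Veh was 0.026 with library totals and ranged from -0.14 to 0.018. The Tnfrsf11a interaction of NKO and RANKL ranged from -0.030 to 0.15. Of the values of single genes under the other settings, 1491 kept direction and side of the threshold, 38 lost the call, 8 gained it and those 5 turned, over 137 results. The cause of lost and gained calls was not tested, and the members gained in WT_IFNb vs WT_Veh and Pgc1b_flox_Cre_Veh vs Pgc1b_flox_Veh are given as counts only. The replicate numbers did not pair the libraries, and with the replicate block the count of members called stayed at 4 for NKO_RANKL vs WT_RANKL and at the same number in the other 21 comparisons.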
